A study of Mus musculus with 14 samples.

Results

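The genes of pyruvate oxidation and the tricarboxylic acid (TCA) cycle were followed in mouse oocytes at the germinal vesicle (GV) stage, in meiotic arrest, and after ovulation, with and without Clpx, which encodes the unfoldase subunit of the mitochondrial ClpXP protease. The set was a list of 31 nuclear genes for mitochondrial pyruvate uptake, the pyruvate dehydrogenase complex and its kinases and phosphatases, the enzymes of the cycle, and 3 enzymes that link it to amino acids and pyruvate. Its members were found by gene symbol. Of the 31, 30 were among the 16417 genes listed in both count tables, and Pdk4 was listed in the ovulated table only. The table of GV oocytes held 18076 genes, and that of ovulated oocytes held 16903.

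There were 4 groups. GV WT oocytes (4 libraries) and ovulated WT oocytes (3 libraries) carried the floxed Clpx alleles without a Cre transgene. GV CKO oocytes (4 libraries) and ovulated CKO oocytes (3 libraries) carried the same floxed alleles with Zp3-Cre, a Cre driven by the promoter of a zona pellucida gene that is active in growing oocytes. All groups thus shared the floxed Clpx alleles. The labels give no age of the mice, no number of animals or oocytes per library, and no batch. P-values therefore measure the spread between these libraries, which may be technical.

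Pyruvate enters the mitochondrial matrix through a carrier built from MPC1 and MPC2. The pyruvate dehydrogenase complex turns it into acetyl-CoA, and is switched off by the PDK kinases and on by the PDP phosphatases. The cycle then oxidises acetyl-CoA and passes electrons to the respiratory chain. Fully grown oocytes use glucose poorly and depend on pyruvate supplied by the surrounding cumulus cells, so this route is their main way of making ATP. Transcription stops in the fully grown oocyte, and during maturation stored mRNAs are kept, degraded, or have their poly(A) tails lengthened or shortened.

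The libraries held 25086506 to 28471453 counts each. Clpx stood at 39.6 to 58.1 CPM (counts per 1e+06 counts, scaled with TMM size factors) in GV WT and 0.676 to 1.44 in GV CKO libraries. It stood at 17.03 to 19.1 in ovulated WT and 0.269 to 0.575 in ovulated CKO libraries. Every library thus matched the genotype of its label. The summed level of 12 oocyte markers was 28125 to 45857 CPM in GV WT, 26254 to 57045 in GV CKO, 12717 to 16580 in ovulated WT and 12852 to 15168 in ovulated CKO libraries, with all 12 detected in each group. The sum of 13 granulosa and cumulus markers was 61.0 to 76.5, 46.2 to 71.2, 65.9 to 129.6 and 68.2 to 109.0 CPM in the same order. Most of that sum was Cyp19a1, followed by Nr5a2 at 5.8 to 17.2, Cyp11a1 at 1.1 to 11.8 and Kitl at 1.5 to 10.3 CPM. Foxl2 and Amh stood near or at 0 in the GV libraries and were not listed for ovulated oocytes, and the cumulus gene Tnfaip6 reached 12.1 CPM in ovulated WT replicate 3. The part of such cells in the results was not tested. The sum of 8 markers of theca, stroma, endothelium and blood was 30.9 to 44.7, 20.3 to 40.6, 45.3 to 109.0 and 55.6 to 76.9 CPM, nearly all of it Pecam1. The ovulated CKO library with replicate number 3 stood apart from replicates 1 and 2 in several members. Some results are given with and without it, but not every value that moves without it.

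The 3′ end of an mRNA is what the oligo(dT) primer of SMART-Seq2 captures, and it carries the motifs that control the poly(A) tail in oocytes. Poly(A) signals (AATAAA or ATTAAA, sought in the last 40 bases on the transcript strand) and cytoplasmic polyadenylation elements (CPE: TTTTAT or TTTTAAT, sought in the last 100 bases on the same strand, overlaps with a poly(A) signal allowed) were therefore looked up in the GENCODE M21 transcripts (GRCm38, the assembly of mm10). Windows of 30 bases are printed with these motifs in capitals, first for the 6 members whose mRNA level rose from GV to ovulated WT oocytes.
Mpc1 (chr17:8297627-8297656, plus strand): taacttaatggcAATAAAtggtttaaatat
Suclg2 (chr6:95473013-95473042, minus strand): ctatataaaaatATTAAAatagttaccttt
Glud1 (chr14:34345227-34345256, plus strand): tggtatcttagaAATAAAagcatggaagtt
Pdk1 (chr2:71903811-71903840, plus strand): tgtttgcaaagaATTAAAcagtgtgctgtc
Pdp1 (chr4:11958186-11958215, minus strand): aatttcAATAAAATTAAAaggctttacatc
Mdh1 (chr11:21556788-21556817, minus strand): attactcagtgcAATAAAtaaccataatct

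The next windows belong to members that fell. That of Dld holds a CPE, that of Fh1 holds a CPE and a poly(A) signal, and those of Idh3b, Idh3g, Dlst and Aco1 show a poly(A) signal. Mdh2, which also fell, had neither motif in the bases searched and has no window. The window of Cs, which did not pass the test in either direction, also holds both motifs.
Idh3b (chr2:130279315-130279344, minus strand): aaaaaaatagtcAATAAAcaaaatacacac
Idh3g (chrX:73778969-73778998, minus strand): gacaggacccagAATAAAgccacttctgtt
Dlst (chr12:85134052-85134081, plus strand): ttttgaatgaaaATTAAAgggcaaatgttc
Aco1 (chr4:40198305-40198334, plus strand): aatttgaataagATTAAAtatattttcatg
Dld (chr12:31331292-31331321, minus strand): gcttagtaatgtTTTTAATcttagtaaatg
Fh1 (chr1:175600374-175600403, minus strand): gcaaAATAAAgtttaTTTTATaaaagaaaa
Cs (chr10:128362450-128362479, plus strand): taaaaatAATAAAtgtTTTTATtaacaatg

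A CPE lay in the last 100 bases of 5 of 30 tested members (Dld, Fh1, Cs, Idh1 and Pdk3). None of the 6 members that rose and 2 of the 15 that fell held one. Among all 12492 tested genes with an annotated 3′ UTR, 19.5% held a CPE, 29.1% of those that rose in WT oocytes and 10.8% of those that fell. The median 3′ UTR was 1791 bases in the members that rose and 900 bases in those that fell, beside 1444 and 602 bases over all tested genes. The shortest belonged to Idh3g (107 bases), Mdh2 (183 bases) and Suclg1 (203 bases). The annotated end need not be the one used in oocytes, and RefSeq ends Dld, Fh1, Glud1, Aco1 and Mdh1, among the genes with a printed window, outside that window or more than 50 bases past it.

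Levels of different genes were compared in deposited FPKM, which is per length. In GV WT oocytes Pdhx, the subunit that anchors dihydrolipoamide dehydrogenase in the complex, had the highest mean at 178 ± 11.2 FPKM (SD, n = 4), followed by Mdh2 at 167 ± 35.0, Dld at 117 ± 10.8 and Cs at 111 ± 11.6. The means of Dld and Cs were closer than their SDs, and those of Pdhx and Mdh2 were closer than the SD of Mdh2. In ovulated WT oocytes the order was Mpc1 at 253 ± 47.0 FPKM (SD, n = 3), Mdh1 at 138 ± 18.0, Cs at 104 ± 7.09, Pdhb at 87.1 ± 24.4 and Pdhx at 77.1 ± 21.0. Mdh2, the mitochondrial malate dehydrogenase, was then 23rd of 31 at 3.64 ± 2.18 FPKM. The lowest means were those of Idh2, Pdp2 and Pdk2 in GV WT oocytes and those of Pdk4, Pdk2, Idh2 and Idh3b in ovulated WT oocytes. Idh2, the mitochondrial NADP-dependent isocitrate dehydrogenase, had 0 counts in 4 of 14 libraries, and Pdk4 had 0 counts in 5 of 6 ovulated libraries. A count of 0 allows a level of up to 0.0822 to 0.106 CPM in the ovulated libraries, from counting error alone.

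**Figure D1:**
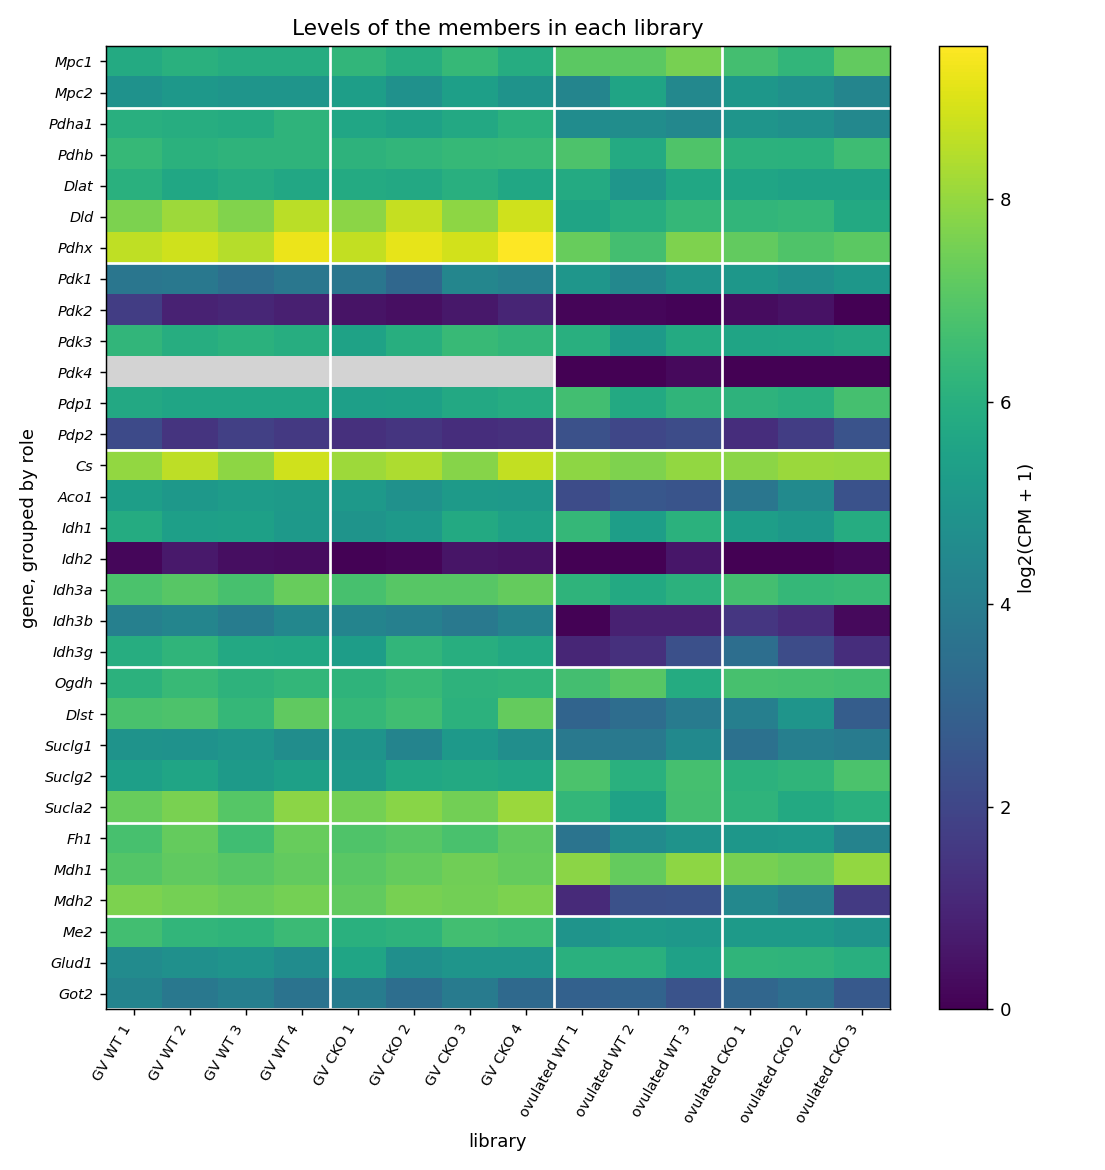
Level of each member (rows, grouped by role) in each library (columns, grouped by stage and genotype), as log2(CPM + 1) on a colour scale from dark (low) to bright (high); grey marks Pdk4, which was not listed for GV oocytes. Mdh2, Idh3b, Idh3g, Dlst and Aco1 are darker in all ovulated libraries than in GV libraries, and Mpc1 is brighter in the ovulated WT libraries.

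From GV to ovulated WT oocytes, 6 of 30 tested members rose and 15 fell at an edgeR adjusted p under 0.05, and 9 did not pass. Of all 13158 genes tested, 29.7% rose and 34.0% fell, 63.7% in all. The median log2 change was -0.80 over the members and -0.08 over all genes tested. The members that rose were the carrier subunit Mpc1, the kinase Pdk1, the phosphatase Pdp1, the succinyl-CoA ligase subunit Suclg2, the cytosolic malate dehydrogenase Mdh1 and the glutamate dehydrogenase Glud1. Among members of at least 10 CPM, the largest falls were those of Mdh2, of the isocitrate dehydrogenase subunits Idh3b and Idh3g, of Dlst and of Aco1. Loss of a transcript, a shorter poly(A) tail and less RNA per oocyte cannot be told apart in these libraries, nor can fewer cells and less RNA per cell. Stage also coincides with the count table, so stage and library set cannot be told apart.

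**Figure D2:**
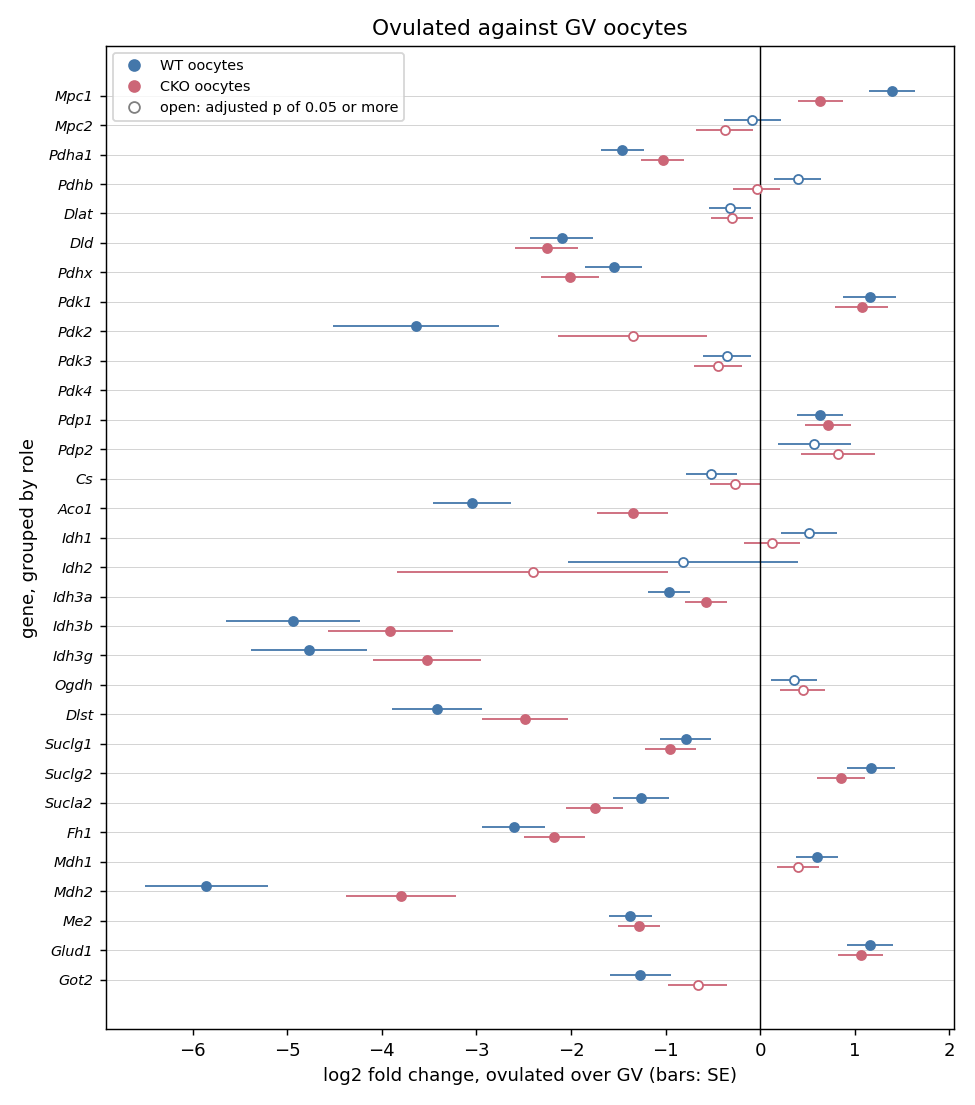
Log2 fold change from GV to ovulated oocytes for each member (rows) in WT (blue) and CKO oocytes (red), with bars of 1 SE; filled points have an edgeR adjusted p under 0.05. Mdh2, Idh3b and Idh3g lie farthest to the left, and Mpc1, Pdk1, Suclg2 and Glud1 lie to the right of 0 in both genotypes.

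Of the pyruvate carrier genes, Mpc1 rose and Mpc2 did not pass. Mpc1 (chr17:8283787-8297667, gene 55951) had 54.9, 64.1, 58.6 and 59.0 CPM in the GV WT libraries and 139, 138 and 190.1 CPM in the ovulated WT libraries. Every ovulated WT library was above every GV WT library, and the log2 change was 1.40 ± 0.24 (SE, edgeR adjusted p = 1.10e-04). Its partner Mpc2 stood at 28.2, 33.1, 29.98 and 29.9 CPM in GV WT and 18.9, 46.0 and 21.0 CPM in ovulated WT libraries, which overlapped, with a log2 change of -0.081 ± 0.30 (SE, edgeR adjusted p = 0.824). In CKO oocytes Mpc1 went from 76.8, 60.03, 82.0 and 58.9 to 102, 74.8 and 147 CPM, overlapping stages with a log2 change of 0.64 ± 0.24 (SE, edgeR adjusted p = 0.033). A processed pseudogene nearly identical to Mpc1 makes its count uncertain, and without the ovulated CKO replicate 3 its rise in CKO oocytes was 0.34 ± 0.23 (SE, edgeR adjusted p = 0.253).

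Within the pyruvate dehydrogenase complex, 3 of 5 subunits fell in WT oocytes. Pdha1 (chrX:160122219-160138430), the catalytic E1 alpha subunit, had 63.7, 60.5, 56.2 and 72.2 CPM in GV WT and 23.6, 24.6 and 20.8 CPM in ovulated WT libraries. The groups did not overlap, and its log2 change was -1.46 ± 0.23 (SE, edgeR adjusted p = 4.64e-05). Pdhb, the E1 beta subunit that forms a tetramer with it, had 82.1, 66.0, 72.8 and 72.3 CPM and 114, 56.1 and 119 CPM, overlapping groups with a log2 change of 0.40 ± 0.25 (SE, edgeR adjusted p = 0.172). With scaling by total counts Pdhb passed, at 0.68 (edgeR adjusted p = 0.0456). Dlat, the E2 core, had 65.4, 49.7, 58.4 and 51.2 CPM in GV WT and 55.1, 31.01 and 49.3 CPM in ovulated WT libraries, a log2 change of -0.32 ± 0.22 (SE, edgeR adjusted p = 0.227). Dld (chr12:31331562-31351471), the E3 enzyme that this complex shares with the 2-oxoglutarate dehydrogenase complex, fell from 199.8, 279, 209.8 and 371 CPM to 45.5, 60.5 and 79.6 CPM. Every ovulated WT library was below every GV WT library, at a log2 change of -2.10 ± 0.33 (SE, edgeR adjusted p = 5.37e-05). Pdhx fell as well, with a log2 change of -1.55 ± 0.30 (SE, edgeR adjusted p = 3.11e-04).

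In CKO oocytes the same 3 subunits fell, though the call of Pdha1 was lost with scaling by total counts, at a log2 change of -0.42 (edgeR adjusted p = 0.24). Pdha1 had 48.9, 42.6, 53.0 and 66.9 CPM in GV CKO and 29.8, 26.9 and 20.9 CPM in ovulated CKO libraries, and Dld had 230.1, 414, 237 and 459 and 75.9, 80.8 and 53.4 CPM. The log2 changes were -1.03 ± 0.22 (SE, edgeR adjusted p = 0.00104) for Pdha1, -2.26 ± 0.34 (SE, edgeR adjusted p = 5.13e-05) for Dld and -2.01 ± 0.31 (SE, edgeR adjusted p = 6.31e-05) for Pdhx. Pdhb had 70.3, 75.8, 81.6 and 84.7 CPM in GV CKO and 68.2, 66.4 and 93.9 CPM in ovulated CKO libraries, and Dlat had 54.8, 52.9, 62.9 and 50.05 and 47.4, 43.5 and 43.9 CPM. Neither passed, at log2 changes of -0.036 ± 0.25 (SE, edgeR adjusted p = 0.913) and -0.30 ± 0.22 (SE, edgeR adjusted p = 0.271). Pdhb shares sequence with a pseudogene, and Pdha1 overlaps Map3k15 on the other strand, so their counts are uncertain.

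The kinases and phosphatases of the complex moved in different directions. Pdk1 (chr2:71873215-71903858) had 12.3, 13.2, 10.2 and 12.6 CPM in GV WT and 30.8, 20.9 and 29.1 CPM in ovulated WT libraries, all of the latter higher, with a log2 change of 1.16 ± 0.28 (SE, edgeR adjusted p = 0.00175). It rose in CKO oocytes from 12.4, 8.07, 19.6 and 17.2 to 32.0, 26.6 and 32.0 CPM, a log2 change of 1.08 ± 0.28 (SE, edgeR adjusted p = 0.00375). Pdk3 was the most abundant kinase gene in GV WT oocytes at 34.5 ± 10.4 FPKM (SD, n = 4), against 3.22 ± 0.449 FPKM for Pdk1. Its CPM were 76.3, 60.4, 66.8 and 59.4 in GV WT, 63.7, 35.4 and 55.6 in ovulated WT, 43.4, 61.5, 84.4 and 76.0 in GV CKO and 46.3, 47.6 and 52.0 in ovulated CKO libraries. These overlapped between the stages of WT oocytes, and Pdk3 passed in neither genotype at log2 changes of -0.35 ± 0.26 (SE, edgeR adjusted p = 0.241) and -0.45 ± 0.26 (SE, edgeR adjusted p = 0.147).

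Pdk2 was close to the detection limit, with 2.30, 0.894, 1.02 and 0.804 CPM in GV WT, 0.106, 0.117 and 0.0676 in ovulated WT, 0.423, 0.297, 0.514 and 0.994 in GV CKO and 0.248, 0.384 and 0 in ovulated CKO libraries. Its log2 change in WT oocytes was -3.64 ± 0.88 (SE, edgeR adjusted p = 0.00179), and in CKO oocytes -1.35 ± 0.79 (SE, edgeR adjusted p = 0.156). Pdk4, a kinase gene induced by fasting in other tissues, had 0, 0 and 0.169 CPM in ovulated WT and 0, 0 and 0 CPM in ovulated CKO libraries. Pdp1, the phosphatase, had 52.0, 47.2, 47.7 and 47.1 CPM in GV WT and 98.4, 53.4 and 73.5 CPM in ovulated WT libraries, with a log2 change of 0.63 ± 0.25 (SE, edgeR adjusted p = 0.0336). In GV CKO libraries Pdp1 had 40.6, 42.0, 53.1 and 58.0 CPM and in ovulated CKO libraries 70.4, 63.7 and 105 CPM, a log2 change of 0.72 ± 0.25 (SE, edgeR adjusted p = 0.0201). Its groups did not overlap in WT oocytes, but its call was lost without GV WT replicate 3 or ovulated WT replicate 1 or 3, at log2 changes of 0.40 to 0.64, and in CKO oocytes without the ovulated CKO replicate 3, at 0.46 ± 0.25 (SE, edgeR adjusted p = 0.144). Pdp2, the other phosphatase gene, passed in neither genotype, but with scaling by total counts it passed in CKO oocytes, at 1.39 (edgeR adjusted p = 0.0158).

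On the first leg of the cycle, citrate synthase (Cs) stood between 202 and 452 CPM in every library and passed in neither genotype, at log2 changes of -0.52 ± 0.27 (SE, edgeR adjusted p = 0.106) and -0.26 ± 0.27 (SE, edgeR adjusted p = 0.421). Aco1 (chr4:40143265-40199009), the cytosolic aconitase that also acts as an iron-regulated RNA-binding protein, had 39.5, 32.5, 37.6 and 34.9 CPM in GV WT and 3.61, 4.93 and 4.56 CPM in ovulated WT libraries. The groups stood far apart, with a log2 change of -3.05 ± 0.41 (SE, edgeR adjusted p = 1.28e-05). NAD-dependent isocitrate dehydrogenase is built from alpha, beta and gamma subunits, and all 3 genes fell. Idh3a, the catalytic alpha subunit, had the smallest change of the 3, from 112, 131, 106 and 159 to 71.9, 54.4 and 69.2 CPM, a log2 change of -0.96 ± 0.22 (SE, edgeR adjusted p = 0.00133).

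Idh3b (chr2:130279309-130284451) had 16.8, 18.9, 14.9 and 20.2 CPM in GV WT and 0.0354, 0.817 and 0.845 CPM in ovulated WT libraries, a log2 change of -4.94 ± 0.71 (SE, edgeR adjusted p = 2.21e-05). Idh3g (chrX:73778963-73786897) had 60.4, 73.3, 52.7 and 51.6 CPM and 1.03, 1.52 and 3.99 CPM in the same groups, a log2 change of -4.77 ± 0.61 (SE, edgeR adjusted p = 8.35e-06). Both genes were thus at a few CPM or less in all ovulated WT libraries, where Idh3a was far higher. In CKO oocytes Idh3b went from 18.8, 16.5, 13.5 and 18.3 to 1.86, 1.29 and 0.168 CPM and Idh3g from 38.0, 75.9, 62.0 and 52.5 to 9.86, 3.67 and 1.35 CPM. Their log2 changes there were -3.91 ± 0.66 (SE, edgeR adjusted p = 1.47e-04) and -3.52 ± 0.57 (SE, edgeR adjusted p = 9.94e-05). Idh1, the cytosolic NADP-dependent enzyme, and Idh2 did not pass in either genotype.

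In the 2-oxoglutarate dehydrogenase complex, Dlst fell and Ogdh did not pass. Ogdh, its E1 enzyme, gave log2 changes of 0.36 ± 0.24 (SE, edgeR adjusted p = 0.205) in WT and 0.45 ± 0.24 (SE, edgeR adjusted p = 0.121) in CKO oocytes. With scaling by total counts Ogdh passed in both, at 0.74 and 1.06. Dlst (chr12:85110822-85134091), its E2 enzyme, had 109, 114, 80.7 and 145 CPM in GV WT and 7.40, 9.60 and 14.5 CPM in ovulated WT libraries. The ovulated libraries were all far below the GV libraries, at a log2 change of -3.42 ± 0.47 (SE, edgeR adjusted p = 1.63e-05). In CKO oocytes Dlst fell from 80.4, 94.8, 67.5 and 152 to 16.3, 30.3 and 6.06 CPM, a log2 change of -2.49 ± 0.45 (SE, edgeR adjusted p = 2.52e-04).

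Succinyl-CoA ligase pairs the alpha subunit of Suclg1 with a beta subunit that sets the nucleotide, ATP for Sucla2 and GTP for Suclg2. Suclg2 (chr6:95473009-95718858) had 40.6, 47.6, 35.7 and 41.6 CPM in GV WT and 111, 65.3 and 103 CPM in ovulated WT libraries, each ovulated library being higher, with a log2 change of 1.17 ± 0.25 (SE, edgeR adjusted p = 7.05e-04). Its CKO values were 33.6, 49.5, 54.1 and 48.8 CPM at the GV stage and 67.9, 73.7 and 111 CPM after ovulation, a log2 change of 0.86 ± 0.25 (SE, edgeR adjusted p = 0.00843). Sucla2 fell in both genotypes, with log2 changes of -1.26 ± 0.29 (SE, edgeR adjusted p = 0.00141) and -1.75 ± 0.30 (SE, edgeR adjusted p = 1.60e-04). So did Suclg1, with log2 changes of -0.79 ± 0.27 (SE, edgeR adjusted p = 0.0184) and -0.95 ± 0.27 (SE, edgeR adjusted p = 0.00733), though without ovulated WT replicate 1 or 2 its change in WT oocytes, at -0.67 or -0.70, did not pass. Suclg2 has a nearly identical pseudogene, which makes its count uncertain, and without the ovulated CKO replicate 3 its CKO change was 0.60 ± 0.26 (SE, edgeR adjusted p = 0.0655).

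On the last leg, fumarase (Fh1) fell in both genotypes, with log2 changes of -2.61 ± 0.33 (SE, edgeR adjusted p = 8.01e-06) and -2.18 ± 0.33 (SE, edgeR adjusted p = 5.40e-05). Mdh2 (chr5:135778649-135790386, gene 17448) had 200.3, 186, 167 and 185 CPM in GV WT and 1.17, 4.08 and 4.26 CPM in ovulated WT libraries. The stages were separated by more than an order of magnitude, at a log2 change of -5.86 ± 0.65 (SE, edgeR adjusted p = 2.58e-06). In GV CKO libraries Mdh2 had 149, 190.2, 179 and 197 CPM and in ovulated CKO libraries 20.9, 15.6 and 2.09 CPM, a log2 change of -3.80 ± 0.58 (SE, edgeR adjusted p = 6.46e-05). Mdh1, which carries out the same reaction in the cytosol, rose in WT oocytes at a log2 change of 0.60 ± 0.22 (SE, edgeR adjusted p = 0.026) and did not pass in CKO oocytes, at 0.40 ± 0.22 (SE, edgeR adjusted p = 0.132). With scaling by total counts Mdh1 passed in CKO oocytes, at 0.97 (edgeR adjusted p = 0.00286). The call of Mdh1 in WT oocytes was lost without replicate 1 or 3 of either stage, at log2 changes of 0.49 to 0.57.

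Of the linking enzymes, Glud1 (chr14:34310727-34345033), which feeds glutamate carbon into the cycle, had 22.8, 26.6, 29.5 and 23.7 CPM in GV WT and 65.4, 64.1 and 42.6 CPM in ovulated WT libraries. Its groups did not overlap, and its log2 change was 1.16 ± 0.24 (SE, edgeR adjusted p = 5.42e-04). In CKO oocytes it went from 47.0, 25.9, 30.3 and 30.1 to 74.2, 71.6 and 63.1 CPM, a log2 change of 1.06 ± 0.24 (SE, edgeR adjusted p = 0.00142). Me2, the mitochondrial malic enzyme, fell in both genotypes, with log2 changes of -1.37 ± 0.22 (SE, edgeR adjusted p = 6.72e-05) and -1.28 ± 0.22 (SE, edgeR adjusted p = 1.82e-04). Got2, the mitochondrial aspartate aminotransferase of the malate-aspartate shuttle, fell in WT oocytes at a log2 change of -1.27 ± 0.32 (SE, edgeR adjusted p = 0.00241) and did not pass in CKO oocytes, at -0.66 ± 0.31 (SE, edgeR adjusted p = 0.0818). Glud1 and Got2 share sequence with pseudogenes, so their counts are uncertain. Exons of Mdh1, Mpc1, Got2 and Idh3b also overlap exons of a gene on the other strand, and no strand setting is given in the sources used here.

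In CKO oocytes 5 of 30 tested members rose from GV to ovulated (Mpc1, Pdk1, Pdp1, Suclg2 and Glud1) and 13 fell. Of all genes tested, 25.8% rose and 29.9% fell, 55.7% in all. The median log2 change was -0.61 over the members and -0.14 over all genes. Aco1 went from 33.9, 26.9, 35.8 and 34.7 to 12.2, 22.2 and 4.24 CPM in CKO oocytes, a log2 change of -1.35 ± 0.38 (SE, edgeR adjusted p = 0.00631). With total counts Aco1 was at -0.71 (edgeR adjusted p = 0.205) in CKO oocytes. Idh3a went from 108, 131, 132 and 154 to 101, 79.6 and 84.0 CPM, a change of -0.57 ± 0.22 (SE, edgeR adjusted p = 0.0367). The call of Idh3a in CKO oocytes was lost without any 1 of GV CKO replicates 2, 3 and 4 and ovulated CKO replicates 2 and 3, at log2 changes of -0.57 to -0.36. Scaling by total counts alone, in place of TMM, moved the median change of all genes by 0.34 in WT and 0.59 in CKO oocytes. It left 8 members higher and 13 lower in WT oocytes but 8 higher and 8 lower in CKO oocytes. Over all genes it called 4471 higher and 3515 lower in WT oocytes and 4688 higher and 2257 lower in CKO oocytes, so the counts of all genes moved too. The change of Idh3a in CKO oocytes was 0.036 under this scaling. It also ended the calls of Suclg1 in both genotypes (-0.47 in WT and -0.40 in CKO oocytes), of Got2 in WT oocytes (-0.96) and of Me2 in CKO oocytes (-0.69). Calls were gained by Pdhb (0.68) and Ogdh (0.74) in WT oocytes. In CKO oocytes they were gained by Ogdh (1.06), Mdh1 (0.97) and Pdp2 (1.39). Without the ovulated CKO replicate 3, 2 members (Pdk1 and Glud1) rose from GV to ovulated CKO oocytes. Idh2 then passed as lower, at -5.76 ± 2.25 (SE, edgeR adjusted p = 0.0465), with 0 counts in ovulated CKO replicates 1 and 2. Calls over all genes are not given here for this setting, so it does not show a move particular to the members.

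Ratios of partner genes within a library do not depend on the scaling. The 6 ratios given were chosen after the values had been seen and have no test. The log2 ratio of Mdh2 to Mdh1 counts was 0.43 ± 0.18 (SD, n = 4) in GV WT and -6.21 ± 1.23 (SD, n = 3) in ovulated WT libraries. That of Idh3b to Idh3a was -2.83 ± 0.10 and -7.59 ± 2.44, and that of Idh3g to Idh3a -1.09 ± 0.36 and -5.12 ± 1.00. The ratio of Dlst to Ogdh went from 0.55 ± 0.31 to -3.17 ± 1.04, that of Sucla2 to Suclg2 from 2.07 ± 0.27 to -0.38 ± 0.31, and that of Pdha1 to Pdhb from -0.22 ± 0.18 to -1.99 ± 0.71. Stages did not overlap in any of the 6 ratios, in either genotype. In ovulated CKO oocytes the ratio of Mdh2 to Mdh1 was -4.49 ± 2.08 (SD, n = 3), with a range of -6.88 to -3.15.

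**Figure D3:**
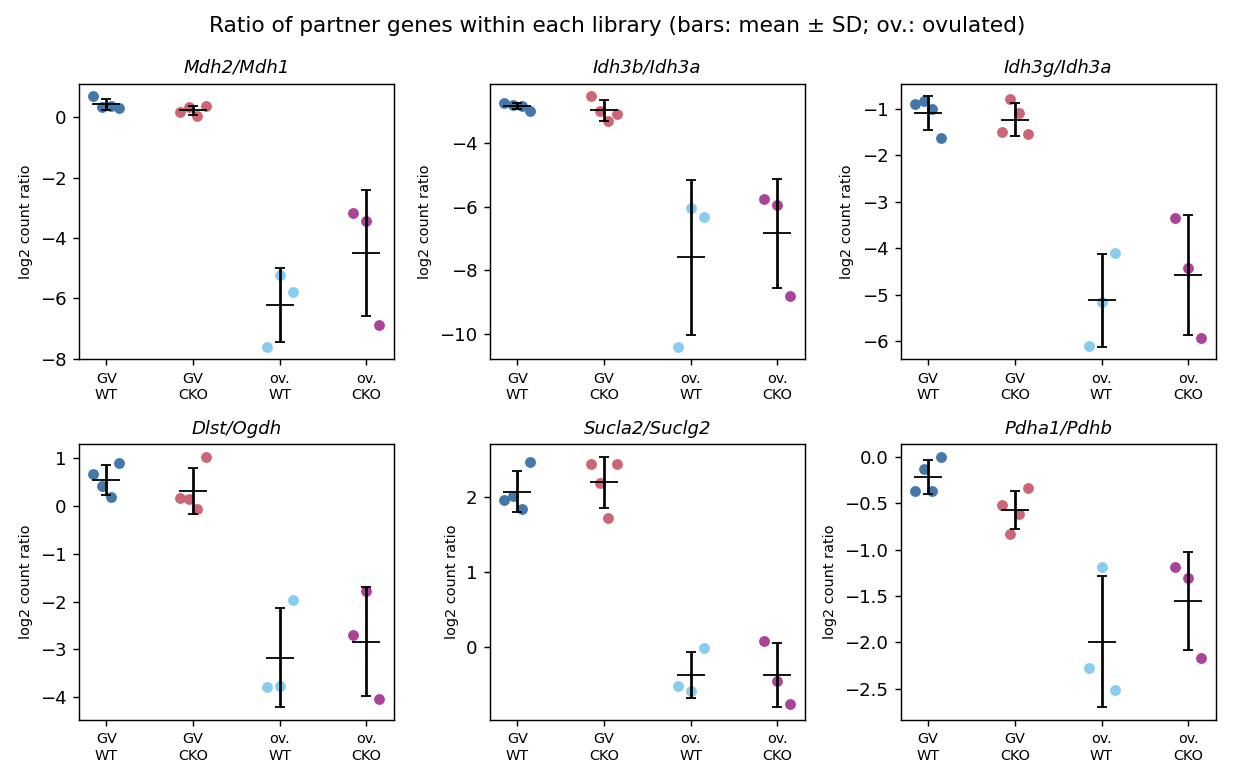
Log2 ratio of the counts of partner genes within each library (points), by group, with the mean and SD as bars. In all 6 panels the ovulated libraries lie below the GV libraries, and the 3 ovulated CKO libraries are spread most widely for Mdh2 to Mdh1.

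At the GV stage no member passed the threshold between CKO and WT oocytes. Of 29 tested members, 0 passed in either direction with edgeR, DESeq2 or limma-voom, where edgeR called 0.0245% of all genes tested (0.0163% higher and 0.00815% lower). The log2 changes (CKO over WT) ran from -1.20 to 0.37 with a median of -0.02, beside 0.02 over all genes, and 13 were positive and 16 negative. The smallest adjusted p was 0.834, and 2 members (Pdk2 and Pdp2, both under 10 CPM) had an unadjusted p under 0.05, against 5.74% of all genes. Among members of at least 10 CPM, the 3 with the smallest p-values were Glud1, Pdha1 and Mpc1, and none passed. Glud1 had 22.8, 26.6, 29.5 and 23.7 CPM in WT and 47.0, 25.9, 30.3 and 30.1 CPM in CKO libraries, overlapping groups with a log2 change of 0.37 ± 0.21 (SE, edgeR adjusted p = 0.836). Without GV CKO replicate 1, the highest library, Glud1 was at 0.18. Pdha1 was at -0.26 ± 0.18 (SE, edgeR adjusted p = 0.853), with -0.16 without GV CKO replicate 2 and -0.41 without GV CKO replicate 4. Mpc1 was at 0.22 ± 0.16 (SE, edgeR adjusted p = 0.853), with 0.13 without GV CKO replicate 3.

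The pyruvate dehydrogenase core and its kinases overlapped between the genotypes of GV oocytes, Pdk2 included. The log2 changes were 0.086 ± 0.16 (SE, edgeR adjusted p = 0.934) for Pdhb, -0.034 ± 0.17 (SE, edgeR adjusted p = 0.973) for Dlat, 0.34 ± 0.29 (SE, edgeR adjusted p = 0.865) for Dld, 0.25 ± 0.27 (SE, edgeR adjusted p = 0.891) for Pdk1 and 0.013 ± 0.22 (SE, edgeR adjusted p = 0.993) for Pdk3. Pdk2 was at -1.20 ± 0.49 (SE, edgeR adjusted p = 0.834). In 7 of the 30 members listed in both tables, the libraries with numbers 2 and 4 stood above numbers 1 and 3 in both genotypes. The 7 were Dld, Pdhx, Cs, Ogdh, Dlst, Sucla2 and Fh1. The 4 libraries with numbers 2 and 4 also had the lowest TMM factors of the GV set. These were 0.654 to 0.834, against 0.891 to 1.12 in the others, and their part in the members' spread was not tested. This split was picked from these same values and not counted over all genes, so it shows no trait of these members.

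In ovulated oocytes 0 of 28 tested members passed between CKO and WT with edgeR, DESeq2 or limma-voom, where edgeR called 0.00830% of all genes. The log2 changes ran from -0.53 to 1.96, with a median of 0.08 beside -0.00048 over all genes. The smallest adjusted p was 0.557, and 2 members, Aco1 and Mdh2, had an unadjusted p under 0.05, against 7.76% of all genes. Their log2 changes were 1.52 ± 0.53 (SE, edgeR adjusted p = 0.557) and 1.96 ± 0.73 (SE, edgeR adjusted p = 0.579). Both had a mean under 10 CPM in these libraries, and their CKO values were high in replicates 1 and 2 and within the WT range in replicate 3. Among members of at least 10 CPM, the 3 with the smallest p-values were Mpc1, Idh3a and Idh1. Mpc1 was at -0.53 ± 0.31 (SE, edgeR adjusted p = 0.717), Idh3a at 0.42 ± 0.25 (SE, edgeR adjusted p = 0.721) and Idh1 at -0.51 ± 0.35 (SE, edgeR adjusted p = 0.751), and none passed. Without the ovulated CKO replicate 3 Mpc1 was at -0.92 ± 0.32 (SE, edgeR adjusted p = 0.216) and Idh1 at -0.89 ± 0.37 (SE, edgeR adjusted p = 0.308). Without the ovulated CKO replicate 2 they were at -0.31 and -0.33, and without the ovulated WT replicate 1 Idh1 was at -0.33. Idh1 had 79.8, 39.4 and 66.9 CPM in WT and 39.4, 32.4 and 58.7 CPM in CKO libraries, where all but 1 CKO library lay near or below the lowest WT library.

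Between the genotypes of ovulated oocytes the core of pyruvate dehydrogenase gave log2 changes of 0.14 ± 0.28 (SE, edgeR adjusted p = 0.91) for Pdha1, -0.34 ± 0.33 (SE, edgeR adjusted p = 0.819) for Pdhb, -0.022 ± 0.29 (SE, edgeR adjusted p = 0.987) for Dlat and 0.15 ± 0.29 (SE, edgeR adjusted p = 0.907) for Dld. Pdk1 was at 0.15 ± 0.29 (SE, edgeR adjusted p = 0.907) and Pdk3 at -0.095 ± 0.29 (SE, edgeR adjusted p = 0.943). Pdk2, Pdk4 and Idh2 were too low to be tested there.

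**Figure D4:**
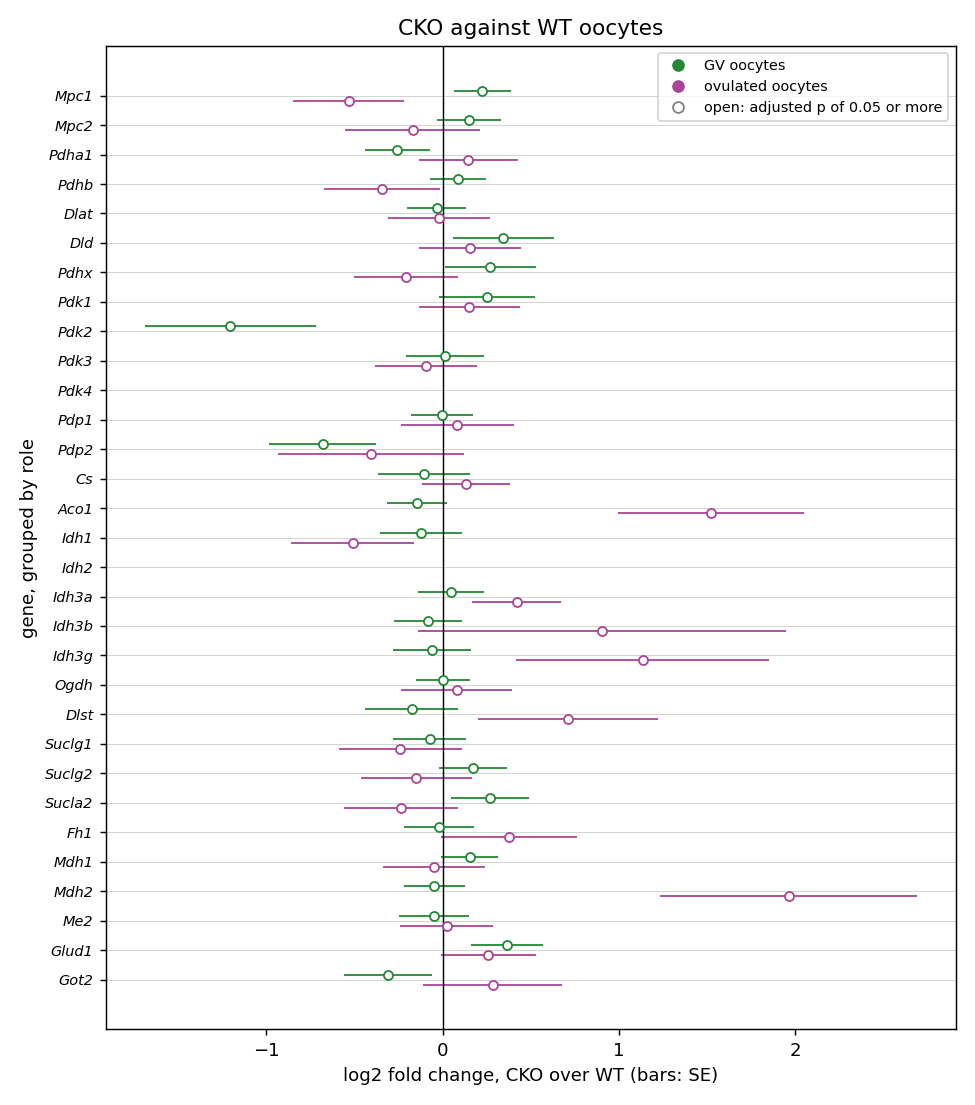
Log2 fold change between CKO and WT oocytes for each member (rows) at the GV stage (green) and after ovulation (purple), with bars of 1 SE; open points did not pass an edgeR adjusted p of 0.05. All points are open, and Aco1, Mdh2, Idh3g and Idh3b in ovulated oocytes lie farthest to the right.

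The ovulated CKO libraries were not alike. In 8 of 28 tested members, replicates 1 and 2 were above every ovulated WT library and replicate 3 was not, a pattern picked after the values had been seen, which 14.7% of all tested genes showed. The 8 were Pdha1, Aco1, Idh3b, Dlst, Fh1, Mdh2, Got2 and Glud1. Of the 14 tested members that fell from GV to ovulated in WT oocytes, 7 showed it, against 37.2% of all genes that fell. Fh1, for example, had 11.5, 23.2 and 28.5 CPM in ovulated WT and 31.7, 34.0 and 18.1 CPM in ovulated CKO libraries, and Got2 had 6.84, 7.09 and 4.46 and 7.78, 9.73 and 5.28 CPM. The oocyte markers Zp1, Zp2, Zp3, Bmp15, Nlrp5, Ooep and Figla were also higher in ovulated CKO replicates 1 and 2 than in replicate 3. The other listed oocyte markers, Gdf9, Ddx4, Dazl, Mos and Oosp1, were lower in replicates 1 and 2 than in replicate 3. So were, among other members, Mpc1, Pdhb, Pdp1, Idh1, Suclg2 and Mdh1, a direction not counted over all genes. Zp2 stood at 95.4, 89.8 and 78.8 CPM in ovulated WT and 332, 443 and 91.5 CPM in ovulated CKO libraries. The part of this split in the members' values was not tested.

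**Figure D5:**
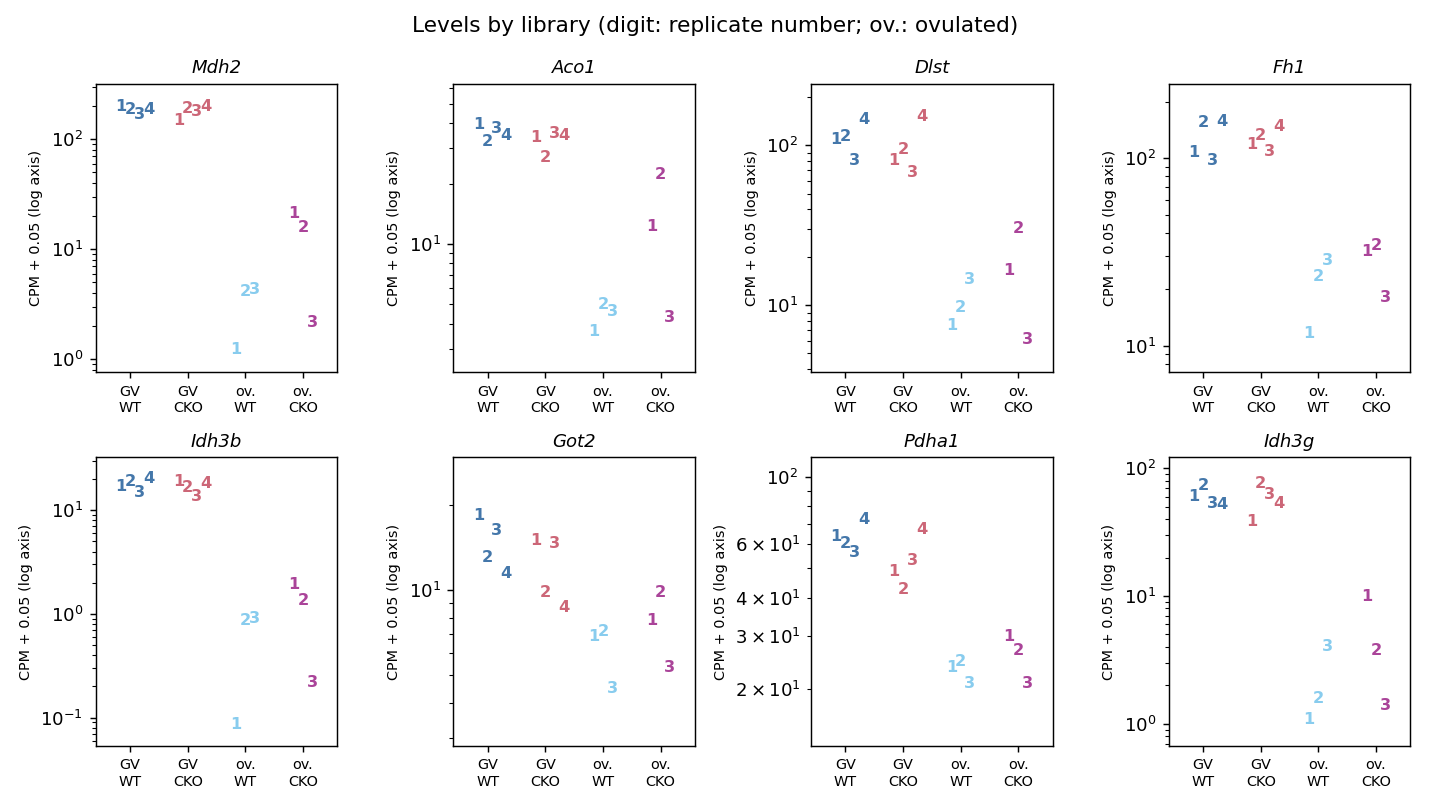
CPM plus 0.05 on a log axis for 8 members in each library; the digit is the replicate number and each column is a group. In ovulated CKO oocytes, numbers 1 and 2 lie above number 3 in each panel. Number 3 lies within the ovulated WT range in every panel but that of Dlst, where it lies below. Idh3g is shown though its number 2 also lies within that range, and Glud1 is not shown.

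Without replicate 3 the ovulated comparison called 0 members, with Mdh2 at 2.42 ± 0.53 (SE, edgeR adjusted p = 0.051) and Aco1 at 1.88 ± 0.42 (SE, edgeR adjusted p = 0.0553), while it called 196 genes higher and 5 lower over the whole table. Whether the effect of Clpx loss differed between stages was tested directly in a fit of all 14 libraries. None of 30 tested members passed, where edgeR called 0.00760% of all genes. DESeq2 and limma-voom called no member either, where DESeq2 called 60 genes higher and 4 lower of 16417. With edgeR the smallest adjusted p was 0.318, and 3 members had an unadjusted p under 0.05 (9.16% of all genes). These were Aco1 at 1.70 ± 0.52 (SE, edgeR adjusted p = 0.318) (1.03 without the ovulated CKO replicate 2), Mdh2 at 2.06 ± 0.72 (SE, edgeR adjusted p = 0.38) and Mpc1 at -0.76 ± 0.34 (SE, edgeR adjusted p = 0.523). Without the ovulated CKO replicate 3, Aco1 at 2.12 ± 0.37 (SE, edgeR adjusted p = 0.00469) and Mdh2 at 2.54 ± 0.48 (SE, edgeR adjusted p = 0.00707) passed, together with 489 genes called higher over the whole table, and 9 lower.

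Other genes of the route were taken from a list of 43, of which 38 were tested between stages. In WT oocytes 5 rose and 17 fell, with a median log2 change of -0.87, and in CKO oocytes 6 rose and 17 fell, with a median of -0.90. Over all genes tested the shares were 29.7% and 34.0% in WT oocytes, with a median of -0.08, and 25.8% and 29.9% in CKO oocytes, with a median of -0.14. In complex II, Sdhd, a membrane anchor of succinate dehydrogenase, fell at a log2 change of -4.57 ± 0.60 (SE, edgeR adjusted p = 9.51e-06). Of the genes of pyruvate and lactate supply, 3 of 5 tested fell, including Pkm, a pyruvate kinase, at a log2 change of -4.04 ± 0.58 (SE, edgeR adjusted p = 2.22e-05). Ldhb, the lactate dehydrogenase subunit that favours pyruvate, had a mean of 8601 ± 1585 CPM (SD, n = 4) in GV WT oocytes. In ovulated WT oocytes it was 886 ± 89.5 CPM (SD, n = 3), a log2 change of -3.28 ± 0.39 (SE, edgeR adjusted p = 4.11e-06).

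In lipoylation and phosphatase regulation, Lipt2, a lipoyl transferase, fell at a log2 change of -3.50 ± 0.64 (SE, edgeR adjusted p = 1.82e-04) and Pdpr, the regulatory subunit of the pyruvate dehydrogenase phosphatase, rose at 1.65 ± 0.35 (SE, edgeR adjusted p = 6.51e-04). Among carriers, 3 of 6 fell, including the citrate carrier Slc25a1 at a log2 change of -4.00 ± 0.63 (SE, edgeR adjusted p = 4.80e-05), and Slc25a11, the 2-oxoglutarate carrier, at -0.71 ± 0.29 (SE, edgeR adjusted p = 0.0456). Among anaplerotic and amino acid genes 3 of 10 rose and 2 fell: Acly, the ATP citrate lyase, rose at a log2 change of 1.10 ± 0.21 (SE, edgeR adjusted p = 2.96e-04) and Me1, the cytosolic malic enzyme, fell at -1.04 ± 0.29 (SE, edgeR adjusted p = 0.0049). Lipt1, another gene of lipoylation, fell in both genotypes, at log2 changes of -1.64 ± 0.35 (SE, edgeR adjusted p = 7.37e-04) in WT and -2.26 ± 0.36 (SE, edgeR adjusted p = 9.68e-05) in CKO oocytes. So did Sdhb, the iron-sulfur subunit of complex II, at -3.85 ± 0.63 (SE, edgeR adjusted p = 6.84e-05) and -2.45 ± 0.58 (SE, edgeR adjusted p = 0.00206). Me3, another mitochondrial malic enzyme, passed in CKO oocytes at -2.35 ± 0.78 (SE, edgeR adjusted p = 0.0173) and not in WT oocytes, at -0.51 ± 0.73 (SE, edgeR adjusted p = 0.552). Its GV CKO level was 52.1 ± 61.9 CPM (SD, n = 4), with 1 library at 144 CPM and the others at 13.05 to 26.04. Between genotypes edgeR passed none of the 37 tested at the GV stage and none of the 34 tested after ovulation. An unadjusted p under 0.05 was found for 3 and 4 of them, against 5.74% and 7.76% of all genes tested.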

How the data were processed

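Libraries were made with SMART-Seq2 from oocytes in lysis buffer, per the labels' protocols, which call the input single-cell samples. The authors deposited, per stage, expected counts (estimated and not scaled, with fractional values) and FPKM values (scaled by the authors to length and depth). The build was mm10, per the submitters' processing notes; the aligner, counting tool and annotation are not given in the sources used here.

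Expected counts were rounded and tested with edgeR 4.0.16 in R 4.3.3 (robust quasi-likelihood test after TMM scaling and filterByExpr, whose minimum count was 10, with Benjamini-Hochberg adjustment over all genes tested, threshold 0.05). Genotypes were compared within each stage. Stages, and the difference of the genotype effect between stages, came from 1 fit of all 14 libraries on genes listed in both tables. CPM are counts over TMM-scaled library sizes. The members and lists were chosen with earlier results of these data known. Per-library values were given for the pyruvate dehydrogenase core and kinases, for up to 5 members in each direction with the largest passing change and a mean of at least 10 CPM, or, with fewer than 2 passing, for the 3 with the smallest p-values. Up to 2 passing genes per group of related genes were named, and 1 gene that this rule would name is not reported here. Alternatives were DESeq2 1.42.0, limma-voom (limma 3.58.1), other scalings, no filter on low counts, replicate blocks and leaving out each library. Gene positions came from RefSeq (GRCm38.p6), and copies of members were sought as transcripts of other genes with at least 95% identity over 300 bases (6 of 30 members). The test was checked on simulated data.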

Additional observations from a re-analysis of the deposited data

Results flagged for a closer look

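In GV WT oocytes 2 members had a library set apart from the other 3, judged by its gap relative to the range and not by the size of the difference. Pdk2 stood at 2.30 CPM in replicate 1, against 1.02 CPM in the next highest library. Pdp1 stood at 52.0 CPM in replicate 1, against 47.1 to 47.7 CPM in the others. Of 60 pairs of member and GV group examined, chance alone would mark about 1 in 20, or 3.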

How the results depend on the processing

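Single members were followed under the alternatives in 48 pairs of member and comparison. These were the passing ones and, where none passed, the 3 of at least 10 CPM with the smallest p-values. Of their 696 values, 666 kept their direction and their side of the threshold, 27 lost their call, 2 gained one and 1 changed sign. Calls gained by other members are not in these counts. With total counts these were Pdhb and Ogdh in WT oocytes and Ogdh, Mdh1 and Pdp2 in CKO oocytes, all higher. The one that changed sign was Idh3a from GV to ovulated CKO oocytes, at 0.036 with total counts. No alternative called a member between genotypes within a stage. Scaling by total counts moved the count of members in CKO oocytes from 5 higher and 13 lower to 8 higher and 8 lower, and that of all genes from 3397 higher and 3935 lower to 4688 and 2257. Leaving out each library in turn gave 2 to 6 members higher and 12 to 13 lower in CKO oocytes, with 2 higher without the ovulated CKO replicate 3. In WT oocytes it gave 4 to 8 higher and 14 to 16 lower. For the stage difference it gave 0 to 2 higher, the 2 being Aco1 (2.12) and Mdh2 (2.54) without that library. Calls over all genes are not given here beside the WT and CKO ranges, which therefore do not show a move particular to the members. In WT oocytes the calls of Mdh1, Pdp1 and Suclg1 were lost without single libraries, and those of Suclg1 and Got2 with total counts. In CKO oocytes those of Pdha1, Aco1, Suclg1 and Me2 were lost with total counts, and Idh3a lost its call with total counts and in 8 other settings.

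Over all genes, DESeq2 called 123 higher and 8 lower between the genotypes of ovulated oocytes and 15 and 26 at the GV stage. The median member difference between ovulated and GV WT oocytes, on the log2(CPM + 1) scale, was -0.66. It was -0.32 with CPM by total counts and -0.31 on the log2(FPKM + 1) scale of the deposited FPKM.

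Whether replicate numbers pair the samples was not settled by their correlations. Same-numbered WT and CKO libraries correlated in their deviations at -0.25 to 0.33 at the GV stage and -0.23 to 0.26 after ovulation. Differently numbered libraries gave -0.37 to 0.35 and -0.32 to 0.37. With a replicate block, 0 members passed between genotypes, and in CKO oocytes Mpc1 (0.57, edgeR adjusted p = 0.0531) and Idh3a (-0.47, edgeR adjusted p = 0.0910) no longer passed between stages.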
